A study of Mus musculus with 16 samples.

Results

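The comparison described here set hepatic stellate cells taken from mice injured with carbon tetrachloride (CCl4) against quiescent stellate cells from untreated mice. It used 8 of the 16 arrays of the series, 3 from CCl4 and 5 from quiescent preparations, and all genes on the array. All mice were male Balb/c animals of 8 to 10 weeks. The CCl4 group received 4 intraperitoneal injections of 0.5 µl per g body weight, and the interval between the last injection and isolation is not given in the labels. Cells of every group were isolated by density centrifugation and macrophages were then removed with magnetic beads against their surface protein F4/80. Both the CCl4 and the quiescent cells were plated for 24 h before RNA was taken, so the quiescent cells had also met plastic. Stellate cells from mice 15 days after bile duct ligation, plated for 24 h (3 arrays), and stellate cells kept for 5 days on plastic with 10% serum (3 arrays) served as further reference points.

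Stellate cells lie between the sinusoidal endothelium and the hepatocytes, store retinyl esters in lipid droplets and hold most of the body's vitamin A. After injury they lose these droplets, divide, and take on properties of myofibroblasts, secreting fibrillar collagen and contracting through smooth muscle actin. CCl4 is a toxin that hepatocytes around the central vein convert to a reactive radical, so repeated doses kill these hepatocytes and leave scar between central veins. The comparison asks which transcripts differ in stellate cells after such injury in the animal.

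Levels are log2 values per probe set from 1 Affymetrix array per preparation, so a difference of 1 is a 2-fold difference, and probe sets of unexpressed genes lie near 2. For a gene that starts there, the size of the fold rests on the background estimate. Each gene was read from the probe set with the highest mean, and 7823 of 18193 genes reached log2 5 on at least 2 of the 16 arrays and were tested with limma. A gene at log2 5 on fewer than 2 quiescent arrays passed only with arrays of other groups, in which it reached that level. Counts of list members that include such genes are descriptions. A gene is said to have risen or fallen, or to have been called, at a p under 0.05 after Benjamini-Hochberg adjustment over those 7823 genes. Each difference is given ± its standard error from limma, with CCl4 minus quiescent as its direction. Each array had 6803 to 7037 genes at log2 5 or above. Over the tested genes, Pearson's r was 0.972 to 0.983 between CCl4 arrays, 0.929 to 0.978 between quiescent arrays and 0.861 to 0.916 between a quiescent and a CCl4 array. Whether the preparations of a group came from different animals is not stated in the labels, and p-values therefore describe the spread between these samples alone, which may be technical.

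A few arrays stood apart from their groups. Quiescent replicate 4 had the lowest correlations among the quiescent arrays (0.929 to 0.952) and, in several injury genes named here, a level between the groups. Leaving out CCl4 replicate 1 lowered the number of called genes most. CCl4 replicate 3 carried more transcripts typical of hepatocytes than the other CCl4 arrays: the fibrinogen gene Fgb stood at 4.38, 3.16 and 8.27 in CCl4 replicates 1, 2 and 3, and the cytochrome Cyp3a11 at 1.57, 2.08 and 5.93.

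In all, 1719 of the 7823 genes were called (22.0%), 744 higher (9.51%) and 975 lower (12.5%). At least 2-fold changes numbered 749 (9.57%), of which 397 were higher (5.07%) and 352 lower (4.5%). Without CCl4 replicate 1 limma called 878 genes, 440 higher and 438 lower, and without quiescent replicate 4 and CCl4 replicate 1 together 1086. The median difference over all tested genes was -0.05, and the middle 50% of genes lay between -0.37 and 0.23. With each array centred on its median, 52.8% of the calls were higher, against 43.3% in the values as deposited, so the balance of rises over falls turned with the scaling.

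**Figure D1:**
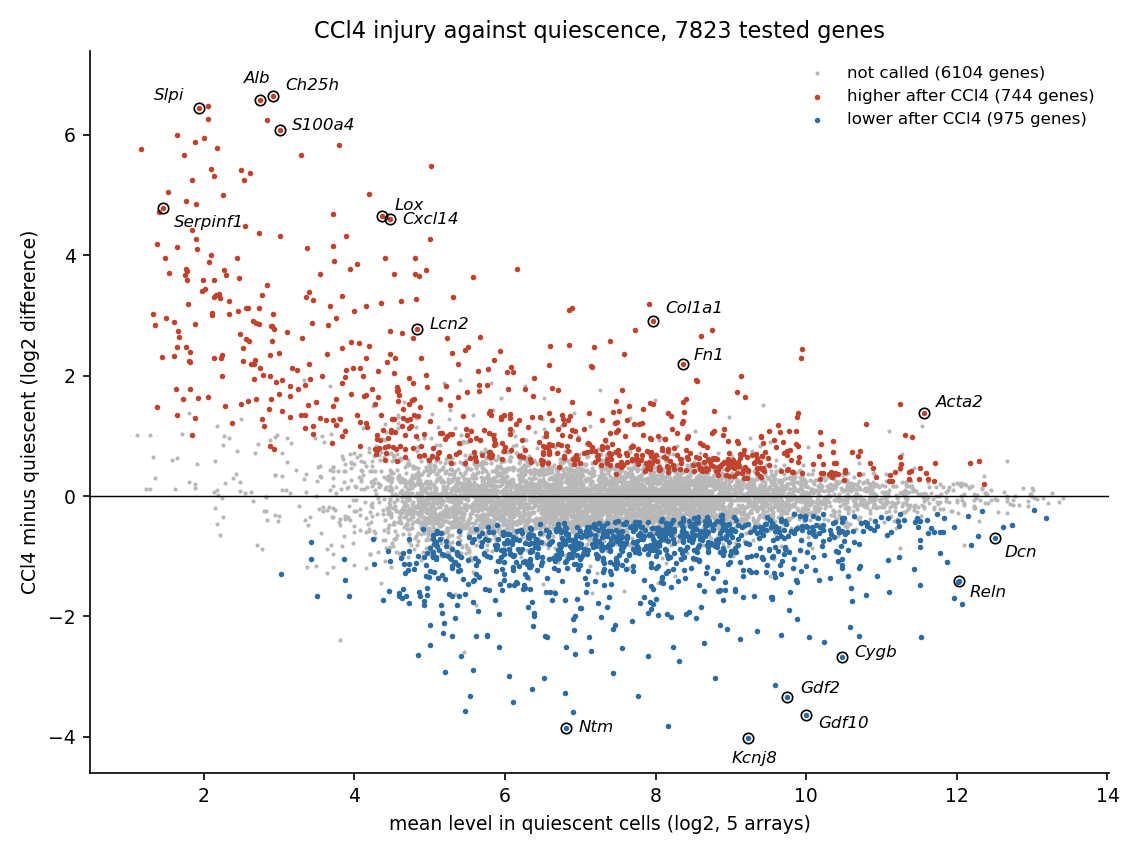
Difference between CCl4 and quiescent cells (log2, vertical axis) against the mean level in quiescent cells (log2, 5 arrays, horizontal axis) for the 7823 tested genes, with the 744 genes called higher in red, the 975 called lower in blue and the others in grey. Circled genes are named in the text. The largest increases start from levels near 2, and the largest decreases end far below quiescent levels of 5 to 10.

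The 15 largest increases among called genes with no overlap of quiescent and CCl4 arrays came from several functions. Over all genes, the groups did not overlap in 25.5%, 11.4% with CCl4 higher and 14.2% with CCl4 lower. Ch25h, the enzyme that makes 25-hydroxycholesterol, stood at 1.79, 3.21, 2.08, 6.19 and 1.35 in the quiescent arrays and at 10.07, 9.49 and 9.13 after CCl4. The CCl4 arrays were all above quiescent replicate 4, itself the highest control, and the difference was 6.64 ± 0.76 (adjusted p = 2.65e-05). S100a4, a calcium-binding protein known from fibroblasts and macrophages, stood at 2.28, 3.07, 3.21, 2.87 and 3.62 against 8.88, 8.57 and 9.82, a difference of 6.08 ± 0.33 (adjusted p = 8.67e-09). Ptgs2, the inducible cyclooxygenase, stood at 2.45, 2.71, 1.58, 7.67 and 2.03 against 9.63, 8.76 and 8.47. Its groups did not overlap, but quiescent replicate 4 lay near the CCl4 arrays, and the difference of 5.67 ± 1.16 (adjusted p = 0.00305) was 6.76 without that array. The other genes of this set were the secreted hepatocyte protein gene Alb (6.58), the simple-epithelial keratins Krt18 (6.49) and Krt8 (5.88), the antiprotease Slpi (6.45), the membrane-bending adaptor Baiap2l1 (6.26) and the acute-phase protein Saa3 (6.24). They were joined by the sodium pump subunit Atp1b1 (5.99), the prohormone-processing enzyme Cpe (5.94), the stromelysin Mmp10 (5.83), the tetraspanin Cd9 (5.78), the basement membrane collagen Col4a5 (5.77) and the small heat shock protein Hspb7 (5.67). Probe sets of a gene did not always agree: a second probe set differed by 0.01 for Cpe and by 1.89 for Col4a5, and those of Atp1b1 lay between 0.14 and 2.34.

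Among the 15 largest decreases were signalling and cytoskeletal genes that were expressed in quiescent cells. Kcnj8, the pore subunit of a potassium channel of pericytes, stood at 9.84, 9.12, 8.78, 8.51 and 9.88 against 4.34, 5.65 and 5.60, a difference of -4.03 ± 0.47 (adjusted p = 2.98e-05). Its partner subunit Abcc9, which is outside the 15 and was named because it forms the same channel, fell by 2.33 ± 0.39. Ntm, a neural adhesion molecule, fell by 3.85, and its 3 probe sets gave -3.85, -3.66 and -4.47. The growth factor genes Gdf10 and Gdf2 also fell, Gdf10 by 3.65 and Gdf2, which encodes BMP9, by 3.34. The microtubule-associated proteins Mapt (-3.60) and Map2 (-3.32) fell together, although 3 other probe sets of Map2 stood near background in both groups. The remaining ones were the matrix proteins Abi3bp (-3.83) and Tnxb (-3.02), the transporter Abca8a (-3.58), Acap1 (-3.42), Mamdc2 (-3.32), the receptor adaptor Arrb1 (-3.27), the vesicle protein Syt9 (-3.20), the lectin Fcna (-3.15) and Jade2 (-3.00). All 30 genes of both sets kept their call under every alternative that gave them a value, leaving out any single array included.

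Markers of the liver's cell types were read before the gene groups. Of the 13 tested stellate cell markers 8 fell (61.5%, against 12.5% of all genes) and 0 rose (against 9.51%). Des, the intermediate filament desmin of stellate cells, was not called (8.54 in quiescent and 8.60 in CCl4 cells, difference 0.06, adjusted p = 0.905). Gfap, Ngfr and Pparg were near background in both groups and were not tested, so those classical markers gave no check of the label. The log2 of the summed stellate marker levels was 14.09 to 14.78 in quiescent and 13.02 to 13.70 in CCl4 arrays. In bulk RNA, fewer cells of a type and less RNA per cell cannot be told apart.

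Some transcripts used as markers of other cell types rose. Most of the markers that rose were near background in quiescent cells and passed the filter only through arrays in which they were high, so the counts of those tested are descriptions. Of 27 hepatocyte markers on the array 5 passed the filter and 4 of those rose, namely Alb, Ttr, Serpina1b and Hpx. Alb stood at 7.94, 9.26 and 10.79 in the CCl4 arrays, highest in replicate 3, and at 1.84 to 3.75 in quiescent arrays. Without CCl4 replicate 3 the difference of Alb was 5.85 (adjusted p = 3.74e-05) and that of Hpx 2.34 (0.00249), in place of 6.58 and 3.59. The log2 of the summed hepatocyte level was 8.20 to 8.67 in quiescent and 9.71 to 11.95 in CCl4 arrays, while the urea cycle enzyme Cps1 stayed at 0.84 to 1.34 after CCl4 and the cytochrome Cyp2e1 at 1.53, 1.53 and 2.69. Of 13 cholangiocyte markers 4 were tested and Krt18, Krt8 and Anxa4 rose, the last without a call once CCl4 replicate 1 or 3 was left out (0.53 and 0.51). Krt18 stood at 7.87, 7.80 and 9.96 after CCl4, and without replicate 3 it differed by 5.78 (adjusted p = 9.6e-08), but the biliary markers Krt19 (2.17) and Epcam (2.22) stayed near background. The summed cholangiocyte level was 8.35 to 8.94 in quiescent and 9.83 to 11.25 in CCl4 arrays. Anxa4 alone stood at 8.11 to 8.82 in quiescent arrays, and Krt18, Krt8 and Anxa4 at 9.96, 9.56 and 9.32 in CCl4 replicate 3. The sum rested mainly on these genes.

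Markers of mesothelium and portal fibroblasts, the other mesenchymal cells of the liver, were higher too. Of 21 on the array 7 were tested and 5 rose: Dpt (5.36 ± 0.36), Fbln2 (5.26 ± 0.41), Bnc1 (4.20 ± 0.45), Col15a1 (2.96 ± 0.39) and Lrrn4 (4.72 ± 0.68). Lrrn4 stood at 3.93, 6.19 and 8.26 after CCl4, highest in replicate 3, and differed by 3.65 without it. The mesothelial genes Upk1b and Wt1 and the portal fibroblast gene Thy1 were below the filter, with means of 4.62, 4.67 and 4.54 after CCl4 against 1.39, 2.14 and 1.17. Summed levels were 6.84 to 9.02 in quiescent and 9.65 to 10.56 in CCl4 arrays. Of 24 macrophage markers 3 were tested. The lysozyme genes Lyz1 (5.41 ± 0.44) and Lyz2 (3.45 ± 0.63) rose, and Cd68 was not called (0.04). Adgre1, which encodes F4/80, stood at 1.88 and 2.23, and C1qa and Clec4f stayed at or below 2.15 on every quiescent and CCl4 array. The summed macrophage level was 7.23 to 8.24 in quiescent and 8.30 to 9.66 in CCl4 arrays. Both tested endothelial markers, Egfl7 and Eng, fell, and Pecam1 and Stab2 were near background in both groups. No lymphocyte or dendritic cell marker passed the filter, and the single tested neutrophil marker (S100a8, 0.11) and the single tested erythroid or platelet marker were not called. Their part in the differences described next was not tested.

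**Figure D2:**
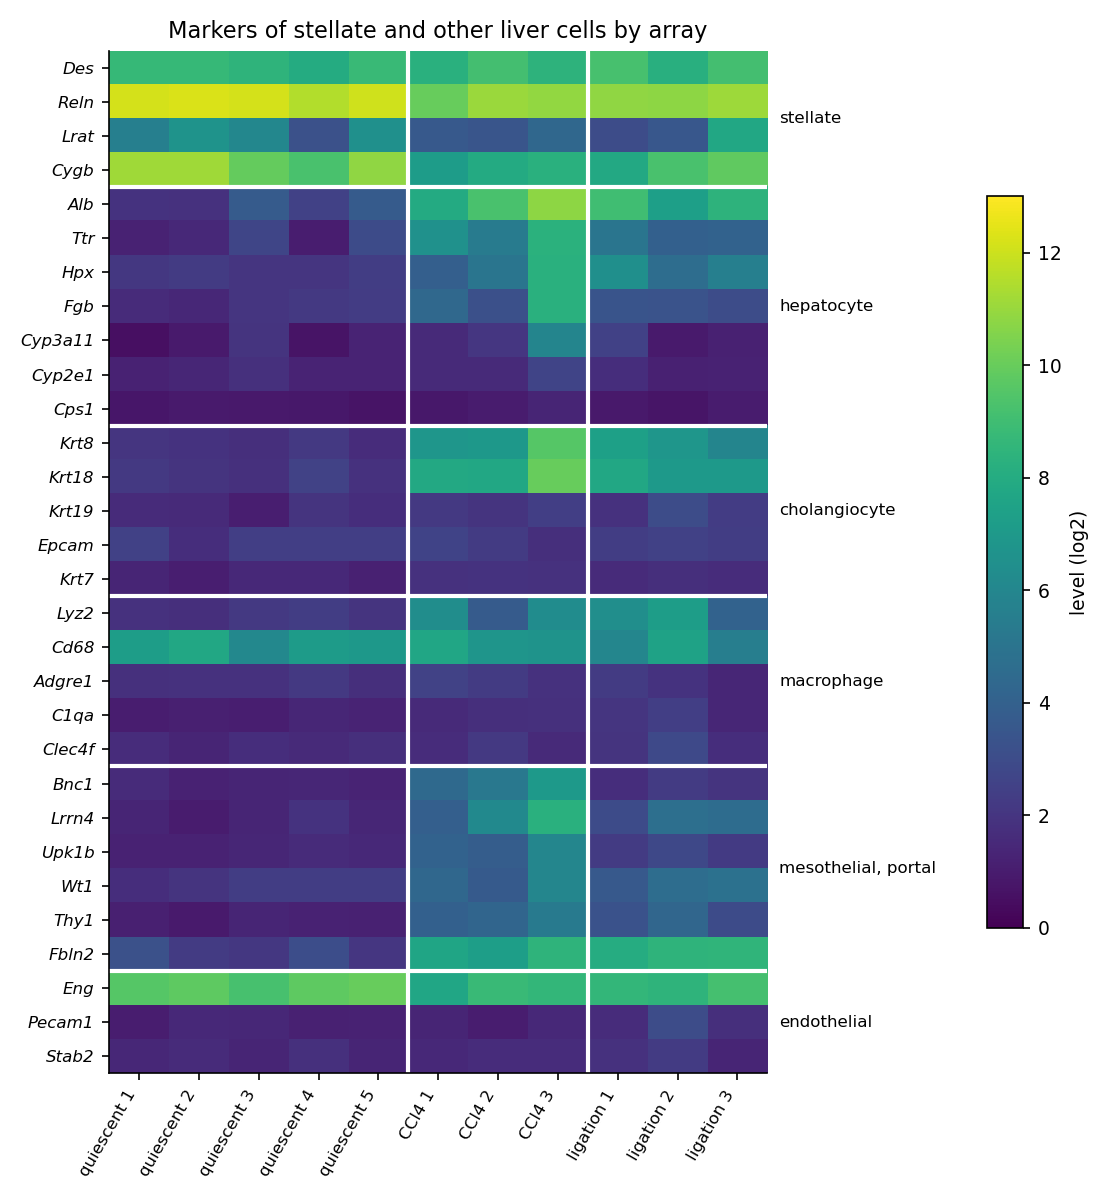
Levels (log2, colour scale) of marker genes of stellate cells, hepatocytes, cholangiocytes, macrophages, mesothelium and portal fibroblasts, and endothelium in each quiescent, CCl4 and bile duct ligation array. Alb, Krt8, Krt18 and Lrrn4 are brightest in CCl4 replicate 3, while Krt19, Epcam, Adgre1, Clec4f and Pecam1 are dark in every array of the quiescent and CCl4 groups.

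Fibrillar collagen genes, the main structural product of activated stellate cells, were higher after CCl4 for type I. Of 6 tested members (median difference 0.87, against -0.05 over all genes) 3 rose, against 9.51% of all genes, and 0 fell, against 12.5%. With 6 members, the absence of falls says little. Col1a2, the alpha-2 chain of type I collagen, stood at 8.92, 8.67, 8.95, 8.07 and 9.12 in quiescent and at 11.87, 11.45 and 11.17 in CCl4 arrays. Every CCl4 array lay above every control, and the difference of 2.75 ± 0.25 (6.73-fold, adjusted p = 2.84e-06) was close to the 2.81 of a second probe set. Col1a1 stood at 9.0, 7.92, 8.17, 6.71 and 8.01 against 10.81, 11.01 and 10.76, a difference of 2.90 ± 0.38 (7.47-fold, adjusted p = 8.36e-05). Its second probe set gave 1.04, so the size depends on the probe set. Col5a2, which starts type I fibrils, rose less, by 0.65 ± 0.12 (adjusted p = 0.00127). Col3a1 was already high in quiescent cells (11.82, 12.08, 10.78, 9.34 and 11.49) and stood at 12.37, 12.29 and 11.91 after CCl4. Its difference of 1.09 ± 0.49 was not called (adjusted p = 0.128), and neither were Col5a1 (0.21) and Col5a3 (0.18).

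Basement membrane genes moved in both directions, with 3 of 11 tested higher (27.3%, against 9.51% of all genes) and 1 lower (9.09%, against 12.5%). Their median difference was -0.16. Col4a5 went from a mean of 1.17 to 7.26, 6.57 and 6.97, while Col4a1 (-0.13) and Col4a2 (-0.12), the common type IV chains, were not called. Nid2, a linker of laminin and type IV collagen, rose by 2.41 ± 0.45 (adjusted p = 0.00144), and Col15a1, which joins basement membranes to fibrils, by 2.96 ± 0.39. The laminin chain Lama1 fell by 1.58 ± 0.37 and lost its call without CCl4 replicate 1. Of 7 other collagens Col8a1, a short-chain collagen of vessel walls, was the single one called (3.64 ± 0.51, adjusted p = 0.000159).

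Glycoproteins of the matrix split into genes that rose and genes that fell: of 28 tested members 10 rose and 5 fell (median 0.64). The shares were 35.7% higher, against 9.51% of all genes, and 17.9% lower, against 12.5%. Fn1, the fibronectin gene, stood at 8.57, 8.57, 8.42, 8.20 and 8.10 in quiescent and at 10.07, 10.77 and 10.87 in CCl4 arrays, without overlap, and rose by 2.20 ± 0.28 (4.58-fold, adjusted p = 6.74e-05). Fbln2, a fibulin of elastic fibres that is also on the portal fibroblast list, rose from 3.20, 2.27, 2.11, 3.07 and 2.04 to 7.64, 7.28 and 8.46. Proteins that hold latent TGF-beta in the matrix went up in part, Ltbp2 by 3.68 ± 0.50 and Ltbp1 by 2.30 ± 0.40, whereas Ltbp4 fell by 1.25 ± 0.38 (-0.78 and not called without CCl4 replicate 1). Mgp, the matrix Gla protein that inhibits calcification, rose by 3.21 ± 0.49. The matricellular gene Tnc, tenascin C, rose by 1.19 ± 0.30 from an already high 10.79 (not called as a mean over probe sets, adjusted p = 0.0547), and Thbs1 by 2.44 ± 0.78 with quiescent arrays spread from 8.23 to 11.90; the call of Thbs1 was lost without any one of the CCl4 arrays (2.39 to 2.47). Ecm1, which keeps latent TGF-beta inactive, fell from a mean of 12.07 to 9.82, 10.75 and 10.29, a difference of -1.79 ± 0.23 (adjusted p = 7.63e-05). Efemp1 (-2.38 ± 0.42), Abi3bp and Tnxb fell as well. Sparc (0.19), Postn (0.10) and Ccn2 (0.58) were not called. Of the 6 small leucine-rich proteoglycans, which bind collagen fibrils, Fmod rose by 4.43 ± 0.56 on 1 of 6 probe sets (the others 0.66 to 1.21), Dcn fell by 0.70 ± 0.13, and Prelp fell by 1.39 ± 0.47 with overlapping arrays and a call that most left-out arrays removed.

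Enzymes that modify and crosslink collagen did not move as a block. Of 24 tested members 3 rose (12.5%, against 9.51% of all genes) and 8 fell (33.3%, against 12.5%), with a median of -0.15. Without CCl4 replicate 1 the number that fell was 4. Lox, lysyl oxidase, which crosslinks collagen outside the cell, stood at 4.40, 4.98, 3.87, 5.05 and 3.53 in quiescent and at 9.07, 8.77 and 9.19 in CCl4 arrays, a difference of 4.65 ± 0.30 (adjusted p = 6.65e-08). A second Lox probe set gave 4.99, and one near background in both groups gave 0.30. Loxl1, the related oxidase of elastic fibres, rose by 3.86 ± 0.25 (adjusted p = 5.43e-08; 0.71 on a second probe set), and Pcolce2, an enhancer of procollagen cleavage, by 2.12 ± 0.51. Enzymes acting inside the cell, in the endoplasmic reticulum, were among those that fell: the galactosyltransferase Colgalt1 by 0.91 ± 0.13, the lysyl hydroxylase Plod1 by 0.89 ± 0.20 (-0.43 and not called as a mean over probe sets) and the prolyl 3-hydroxylase family member P3h3 by 0.87 ± 0.20. The collagen chaperone Serpinh1 (0.24) and the prolyl 4-hydroxylases P4ha1 (-0.33) and P4ha2 (0.02) were not called.

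Matrix-degrading proteases and their inhibitors rose more often than they fell, 11 of 27 against 3 (median 0.85). The shares were 40.7% higher, against 9.51% of all genes, and 11.1% lower, against 12.5%. Yet only 6 rose without CCl4 replicate 1 and 6 without CCl4 replicate 2, and 1 fell without CCl4 replicate 1. The promoters of a pair of them are printed here because both hold the AP-1 motif, bound by Fos and Jun proteins and known from collagenase and stromelysin genes. Capitals mark TGAGTCA or TGACTCA, each the reverse complement of the other, in the 250 bases before the RefSeq start site (GRCm38.p6).
Mmp10, chr9:7502092-7502341, plus strand: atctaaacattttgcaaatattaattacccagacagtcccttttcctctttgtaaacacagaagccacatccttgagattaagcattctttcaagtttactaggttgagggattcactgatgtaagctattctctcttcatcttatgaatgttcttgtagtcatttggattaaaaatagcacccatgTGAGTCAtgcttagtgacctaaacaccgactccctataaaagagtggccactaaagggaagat
Mmp13, chr9:7272264-7272513, plus strand: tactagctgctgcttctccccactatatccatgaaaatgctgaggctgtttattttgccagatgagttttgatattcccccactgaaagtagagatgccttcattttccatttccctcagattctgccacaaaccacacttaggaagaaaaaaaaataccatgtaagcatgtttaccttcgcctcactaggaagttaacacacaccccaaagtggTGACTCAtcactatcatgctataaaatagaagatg
The motif began 63 bases before the start in Mmp10 and 35 bases before it in Mmp13. It was found on either strand in 4 of the 7 promoters matched for the 11 rising members (57.1%; Adam19, Mmp10, Mmp12 and Mmp13), in 6 of the 19 matched for all 27 tested members (31.6%) and in 5.16% of the 27025 genes with a promoter sequence. A match is a description of these letters and not evidence of binding. Mmp10, a stromelysin, stood at 3.57, 3.47, 2.11, 6.57 and 3.22 in quiescent and at 10.05, 9.06 and 9.73 in CCl4 arrays, so all CCl4 arrays were above quiescent replicate 4, and it rose by 5.83 ± 0.82 (56.7-fold, adjusted p = 0.000163). Mmp13, the collagenase of rodents, stood at 3.61, 4.18, 4.38, 8.16 and 3.97 against 8.54, 8.74 and 8.26. Quiescent replicate 4 nearly reached the CCl4 arrays, and the difference was 3.65 ± 0.95 (adjusted p = 0.0134) with it and 4.48 (adjusted p = 0.00044) without it, while leaving out CCl4 replicate 1 removed the call (adjusted p = 0.0545).

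Further proteases rose by less. The macrophage elastase gene Mmp12 rose by 3.67 ± 0.56 (adjusted p = 0.000321), the sheddase Adam19 by 1.58 ± 0.25 and the urokinase gene Plau by 1.75 ± 0.41 (not called without CCl4 replicate 1). Timp1, the inhibitor most closely tied to liver fibrosis, stood at 8.28, 8.53, 7.48, 9.62 and 8.78 against 10.61, 10.24 and 10.57, and rose by 1.94 ± 0.63 (adjusted p = 0.0387). Its groups did not overlap, yet the call was lost without any one of quiescent replicates 1, 2, 3 and 5 and of the CCl4 arrays (1.67 to 2.05). The gelatinase Mmp2 (-0.17, adjusted p = 0.728), its activator Mmp14 (0.01) and Timp2 (-0.01) were not called. Reck, a membrane-anchored inhibitor of several metalloproteases, fell by 1.44 ± 0.25 (adjusted p = 0.00107).

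Contractile genes included 9 that rose and 0 that fell among 26 tested members (34.6% higher, against 9.51% of all genes, median 0.37). Acta2, alpha smooth muscle actin and the usual marker of activated stellate cells, was already high after 24 h on plastic in quiescent cells (11.20, 11.56, 12.00, 11.20 and 11.82) and stood at 12.77, 13.09 and 12.95 after CCl4. The difference of 1.38 ± 0.19 (2.60-fold, adjusted p = 0.000115) left no overlap. Several members with quiescent means under the log2 5 of the filter rose as well. They passed only through groups in which they were high, so the count and median of this list are descriptions. Myh11, smooth muscle myosin heavy chain, stood at 2.80, 4.10, 4.45, 3.43 and 3.89 against 7.16, 8.72 and 7.06 and rose by 3.91 ± 0.49 (adjusted p = 5.71e-05). Actg2, gamma smooth muscle actin, rose by 4.15 ± 0.39 (17.8-fold, adjusted p = 4.1e-06), the actin nucleator Lmod1 by 3.25 ± 0.37 and calponin, Cnn1, by 3.71 ± 0.49. Tpm2 (1.38 ± 0.25), Myl9 (1.32 ± 0.27) and the cofactor Mrtfa (1.34 ± 0.29), which drives actin genes together with serum response factor, rose too. Tagln (0.33), Smtn (0.26), Vim (-0.16) and Srf (0.41) were not called, and the smooth muscle genes Myocd (1.45 and 1.47) and Aoc3 (1.57 and 1.65) stayed near background in both groups.

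**Figure D3:**
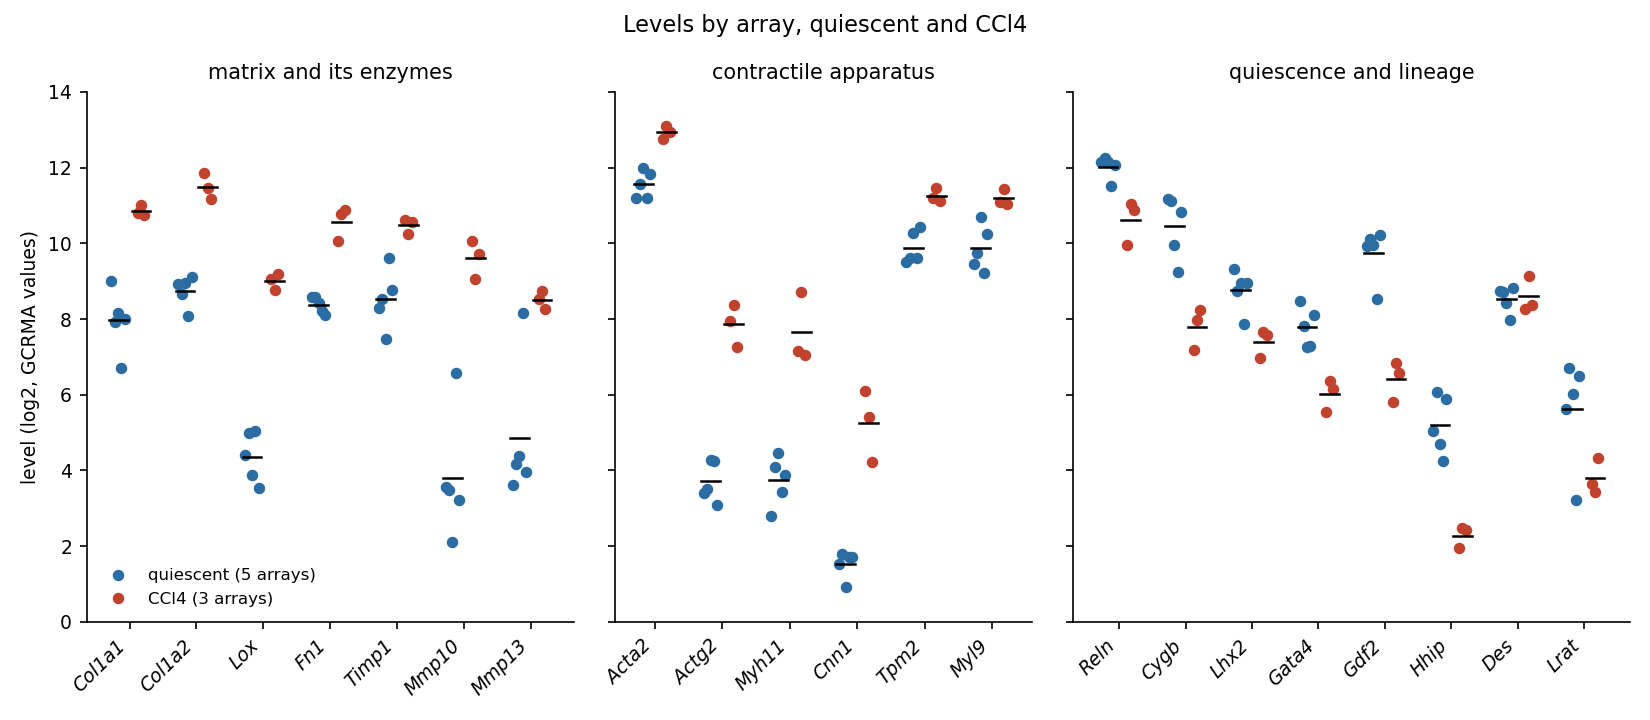
Levels (log2) of matrix, contractile and quiescence genes in each quiescent array (blue, 5) and CCl4 array (red, 3), with bars at the group means. Col1a2, Lox, Fn1, Acta2 and Myh11 lie higher in all CCl4 arrays, Reln, Cygb and Gdf2 lower in all of them, and Des overlaps.

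Adhesion and caveolar genes changed in a few members. Of 15 tested integrins and focal adhesion genes 2 rose (13.3%, against 9.51% of all genes) and 1 fell (6.67%, against 12.5%). The laminin receptor subunit Itga6 (3.62 ± 0.46) and the VCAM1 and fibronectin receptor subunit Itga4 (2.75 ± 0.63) rose. Parva fell by 0.51 ± 0.16 (-0.33 and not called without CCl4 replicate 1). Cav1, the main coat protein of caveolae, stood at 2.70, 2.19, 1.55, 2.34 and 1.88 against 7.39, 6.73 and 8.24, a difference of 5.32 ± 0.38 (adjusted p = 1.88e-07). Cavin2, which shapes caveolae, rose by 4.68 ± 0.45, whereas Cav2 (-0.19), Cavin1 (-0.46) and Cavin3 (-0.44) were not called. Both genes that rose are also abundant in endothelium and fibroblasts, and the part of such cells in these differences was not tested.

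TGF-beta, the cytokine family most closely linked to fibrosis, signals through receptor kinases and Smad proteins, and BMPs form its other branch. Of 32 tested members 3 rose (9.38%, near the 9.51% of all genes) and 14 fell (43.8%, against 12.5%), with a median of -0.46. The number that fell was 8 without CCl4 replicate 1, and the number that rose was 1 without CCl4 replicate 3. Among ligands, Tgfb2 stood at 5.82, 6.52, 5.94, 5.84 and 6.44 in quiescent and at 7.85, 8.58 and 8.10 in CCl4 arrays, without overlap, and rose by 2.06 ± 0.22 (4.18-fold, adjusted p = 1.47e-05). Tgfb3 rose by 1.61 ± 0.45 and lost its call without CCl4 replicate 2 or 3. Tgfb1, the best known isoform, fell by 0.92 ± 0.32, with an adjusted p of 0.0497 that nearly every alternative moved past the threshold. Several BMP ligands fell. Gdf2 stood at 9.94, 10.11, 9.95, 8.53 and 10.22 against 5.82, 6.84 and 6.57, a difference of -3.34 ± 0.41 (adjusted p = 4.49e-05), or -3.64 without quiescent replicate 4. Bmp5 fell by 2.43 ± 0.27 (adjusted p = 2e-05) and Bmp2 by 1.67 ± 0.30. Bmp4 (0.73) and Bmp10 (0.98) were not called.

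Receptors and inhibitors of the family fell as well. The co-receptor Tgfbr3, betaglycan, went from a mean of 10.61 to 8.27, 8.99 and 9.37 (-1.74 ± 0.28, adjusted p = 0.000454), the co-receptor Eng from 9.66 to 7.68, 8.80 and 8.59, and the activin receptor Acvr2a from 8.23 to 6.42, 7.38 and 7.24. The signalling receptors Tgfbr1 (-0.38) and Tgfbr2 (-0.41) were not called. Bambi, a decoy receptor that blocks TGF-beta signals, fell by 1.96 ± 0.35 (adjusted p = 0.00116), while the BMP antagonist Grem1 rose by 3.41 ± 0.90 with CCl4 arrays at 5.89, 3.98 and 6.29 (not called without CCl4 replicate 1 or 3). The feedback inhibitors Smad6 (-1.56 ± 0.44) and Smad7 (-0.62 ± 0.18) and the BMP target Id3 (-0.89 ± 0.30) fell, and the call of each was lost without CCl4 replicate 1. The transducers Smad2 (-0.02), Smad3 (0.49) and Smad4 (-0.41) were not called.

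Of 14 PDGF, VEGF and angiopoietin genes 6 rose (42.9%, against 9.51% of all genes), 3 without CCl4 replicate 1, and 2 fell (14.3%, against 12.5%; median 0.39). Pdgfrb, the receptor through which PDGF drives stellate cell division, stood at 11.58, 11.09, 11.25, 10.86 and 11.38 in quiescent and at 9.86, 10.61 and 10.18 in CCl4 arrays. It fell by 1.02 ± 0.17 (adjusted p = 0.000784), and Pdgfra (-0.68, adjusted p = 0.109) was not called. Angptl4, an inhibitor of lipoprotein lipase, rose by 3.69 ± 0.38 (adjusted p = 1.06e-05), Nrp2 by 2.84 ± 0.63 and Angpt2 by 1.78 ± 0.41 (adjusted p = 0.059 without quiescent replicate 4 and CCl4 replicate 1 together). Vegfb fell by 1.29 ± 0.22. Of 15 HGF, FGF, EGF and IGF genes 2 rose and 2 fell (13.3% each), near the shares of all genes. Met, the HGF receptor, rose by 3.36 ± 0.43 to 5.16, 5.24 and 6.29, and Egfr by 1.28 ± 0.23. Met is also a hepatocyte and epithelial gene. Fgfr2 fell by 1.89 ± 0.33 and Tgfa by 0.83 ± 0.28 (adjusted p = 0.0407, not called without any one CCl4 array). Hgf, a stellate cell product that acts on hepatocytes, just missed the threshold (-1.06, adjusted p = 0.0502).

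The developmental pathways of Hedgehog, Wnt and Notch had 5 of 14 tested members lower (35.7%, against 12.5% of all genes) and 0 higher (median -0.62). Leaving out CCl4 replicate 1 or 2 or quiescent replicate 2 or 5 left 3 lower. Rspo3, a Wnt enhancer, fell from 11.71, 11.41, 11.26, 11.50 and 11.72 to 8.25, 9.68 and 9.58 (-2.35 ± 0.31, adjusted p = 7.78e-05). Hhip, which sequesters Hedgehog ligands, fell by 2.92 ± 0.42, and Notch1 by 1.5 ± 0.29. Of 13 YAP and TAZ pathway genes 4 rose (30.8%, against 9.51% of all genes, and 2 without CCl4 replicate 1) and 0 fell. Vgll3, a TEAD cofactor, rose from 7.13, 7.70, 7.72, 8.74 and 7.33 to 10.47, 10.53 and 10.48 (2.77 ± 0.34, adjusted p = 5.49e-05). The others that rose were Ajuba (1.26 ± 0.29), Amotl2 (1.05 ± 0.28) and Axl (0.54 ± 0.18, adjusted p = 0.0449). The targets Ccn1 (0.70), Ccn2 (0.58) and Ankrd1 (1.16) and Yap1 itself (0.28) were not called.

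Vasoactive genes changed in both directions, 4 of 22 higher (18.2%, against 9.51% of all genes) and 6 lower (27.3%, against 12.5%), with 3 lower without CCl4 replicate 1. Edn1, the vasoconstrictor endothelin-1, rose by 2.69 ± 0.27 (adjusted p = 6.66e-06) to 5.39, 4.56 and 5.55, while its receptor gene Ednrb fell by 1.70 ± 0.39 (adjusted p = 0.0511 without CCl4 replicate 1). F2r, the thrombin receptor, rose from a mean of 11.40 to 12.44, 12.48 and 12.21 (0.98 ± 0.13, adjusted p = 6.85e-05), and Ptger4, a prostaglandin E2 receptor, by 3.15 ± 0.38. The parathyroid hormone receptor Pth1r fell by 2.21 ± 0.26. Ramp2 (-1.99 ± 0.29) and Calcrl (-1.32 ± 0.27), whose products form an adrenomedullin receptor, fell too.

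In the list of quiescence and retinoid storage genes several quiescence markers were lower, while no tested enzyme of retinoid storage or metabolism was called. Of 19 tested members 9 fell (47.4%, against 12.5% of all genes) and 1 rose (median -1.40), and the gene that rose, the retinoic acid receptor Rarb, lost its call without any one CCl4 array. Reln, the secreted protein reelin and a stellate cell marker, stood at 12.16, 12.26, 12.14, 11.52 and 12.07 in quiescent and at 9.97, 11.05 and 10.87 in CCl4 arrays, a difference of -1.40 ± 0.31 (adjusted p = 0.00537). Cygb, the globin cytoglobin of stellate cells, stood at 11.17, 11.13, 9.95, 9.25 and 10.83 against 7.18, 7.97 and 8.24 (-2.67 ± 0.53, adjusted p = 0.00227). Both genes separated the groups fully. Rxra, the partner of retinoid receptors, fell by 1.43 ± 0.20 (adjusted p = 0.000163), the receptor Vipr1 by 2.66 ± 0.42 and the pericyte gene Rgs5 by 1.53 ± 0.34. Lrat, which makes retinyl esters, stood at 5.63, 6.70, 6.02, 3.22 and 6.50 against 3.65, 3.44 and 4.32. Quiescent replicate 4 lay below all CCl4 arrays, and the difference of -1.81 ± 1.04 was not called (adjusted p = 0.234). The retinoid enzymes Aldh1a1 (-0.02), Rdh10 (-0.88) and Dhrs3 (1.14) were not called either. The stellate markers as a whole stood lower in every CCl4 array, as given above.

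Transcription factors of the stellate lineage followed the same direction in part. Of 26 tested members 9 fell (34.6%, against 12.5% of all genes) and 2 rose (7.69%, against 9.51%), with a median of -0.81. The number that fell was 5 without CCl4 replicate 1 and 16 without quiescent replicate 4, and the number that rose was 1 without CCl4 replicate 3. Lhx2, needed for stellate quiescence, stood at 9.31, 8.75, 8.95, 7.86 and 8.94 against 6.97, 7.66 and 7.59 (-1.35 ± 0.28, adjusted p = 0.00328), and Gata4, of which the same is known, at 8.47, 7.81, 7.26, 7.28 and 8.12 against 5.54, 6.35 and 6.14 (-1.78 ± 0.30, adjusted p = 0.000829). No array of the groups overlapped for either gene. Klf2 (-1.60 ± 0.18), Klf4 (-1.64 ± 0.21) and Ets1 (-0.83 ± 0.11) also fell. Prrx1, a factor of embryonic mesenchyme and of fibroblasts, rose from 4.26, 3.83, 4.44, 4.66 and 4.84 to 8.23, 8.02 and 8.86 (3.96 ± 0.30, adjusted p = 3.74e-07). Tcf21 (-0.43), Hand2 (-1.32) and Gata6 (-0.33) were not called.

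Axon guidance genes, several of which serve as adhesion cues outside the nervous system, had 9 of 20 tested members lower. The share lower over all genes was 12.5%. Another 2 of the 20 were higher, near the 9.51% of all genes, or 1 without CCl4 replicate 1. The median of the list was -0.73. Ntn1, netrin-1, fell from 10.72, 10.65, 10.55, 10.43 and 10.58 to 7.91, 8.88 and 8.41 (-2.18 ± 0.21, adjusted p = 4.41e-06). The semaphorin receptors Plxnc1 (-2.34 ± 0.35) and Plxna1 (-0.98 ± 0.18), the netrin receptor Neo1 (-1.24 ± 0.28) and Sema6d (-1.21 ± 0.22) fell with it. Efnb2, the ephrin of arterial vessels, rose by 1.57 ± 0.34.

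Lipid genes showed no common direction. Of 21 droplet and triglyceride genes 3 rose (14.3%, against 9.51% of all genes) and 5 fell (23.8%, against 12.5%). Without CCl4 replicate 1 the number that fell was 3. Plin2, the coat protein of lipid droplets, was not called (-0.01), the monoglyceride lipase Mgll fell by 1.84 ± 0.34 and the fatty acid carrier Fabp4 rose by 3.39 ± 0.52. Scd1 rose by 2.09 ± 0.47 while its paralog Scd2 fell by 1.39 ± 0.36 (not called without CCl4 replicate 1, adjusted p = 0.0746). Of 19 cholesterol genes Ch25h was the single one called higher, and the regulator Srebf2 fell by 1.60 ± 0.39 (not called without CCl4 replicate 1).

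Genes of mitosis had the largest share of calls among the pathway lists. Of 39 mitosis and cytokinesis genes on the array 18 were tested, 16 rose (88.9%, against 9.51% of all genes) and 0 fell (median 2.82). Only 5 of the 18 reached a mean of 5 in both groups, so most passed the filter only through the groups in which they were high, and their count and median are descriptions. The promoters of 3 of them are printed because they hold the CHR element, through which repressor complexes silence mitotic genes in resting cells, close to CCAAT boxes. Capitals mark the CHR letters TTTGAA or TTCGAA and the CCAAT box, on either strand, so that TTCAAA and ATTGG count too, in the 250 bases before the RefSeq start site (GRCm38.p6); in Ube2c a pair of CCAAT boxes overlaps as CCAATTGG.
Cdk1, chr10:69352913-69353162, minus strand: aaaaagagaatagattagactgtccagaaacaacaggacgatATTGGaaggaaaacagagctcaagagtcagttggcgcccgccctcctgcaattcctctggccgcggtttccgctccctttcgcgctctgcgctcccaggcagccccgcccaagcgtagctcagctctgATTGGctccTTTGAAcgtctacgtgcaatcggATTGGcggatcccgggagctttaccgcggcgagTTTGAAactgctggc
Top2a, chr11:99024190-99024439, minus strand: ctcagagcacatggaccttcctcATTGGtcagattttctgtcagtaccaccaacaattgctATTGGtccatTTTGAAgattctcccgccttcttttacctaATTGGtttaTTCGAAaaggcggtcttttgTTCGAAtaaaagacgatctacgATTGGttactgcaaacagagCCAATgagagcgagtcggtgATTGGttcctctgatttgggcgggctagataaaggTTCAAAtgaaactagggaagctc
Ube2c, chr2:164769679-164769928, plus strand: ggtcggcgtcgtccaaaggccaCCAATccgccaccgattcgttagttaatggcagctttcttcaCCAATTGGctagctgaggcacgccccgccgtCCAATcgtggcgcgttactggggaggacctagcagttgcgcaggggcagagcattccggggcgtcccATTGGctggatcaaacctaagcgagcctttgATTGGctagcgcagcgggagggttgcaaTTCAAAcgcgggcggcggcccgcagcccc
CHR letters began 71 and 15 bases before the start of Cdk1, 179, 140, 120 and 23 bases before that of Top2a and 29 bases before that of Ube2c. They occurred in 7 of the 13 promoters matched for the 16 rising members (53.8%; Cdc20, Cdk1, Ect2, Mki67, Prc1, Top2a and Ube2c), against 19.6% of all 27025 genes, and CCAAT boxes in 8 of the 13 (61.5%) against 37.5%. Over all tested members of the list the shares were close to these, with CHR letters in 8 of 15 (53.3%) and CCAAT boxes in 10 of 15 (66.7%). These are counts of letters and were not tested.

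Cdk1, the kinase that starts mitosis, stood at 3.30, 2.16, 3.12, 2.19 and 2.91 in quiescent and at 6.69, 7.18 and 7.46 in CCl4 arrays, and rose by 4.37 ± 0.32 (adjusted p = 2.28e-07). Top2a, the topoisomerase that separates sister chromosomes, stood at 1.97, 1.67, 2.14, 1.43 and 2.30 against 5.67, 6.11 and 6.73 (4.27 ± 0.38, adjusted p = 2.25e-06). Ube2c, an enzyme that marks cyclins for destruction, stood at 1.24, 1.55, 1.86, 1.63 and 1.97 against 5.03, 6.08 and 6.24 (4.13 ± 0.45, adjusted p = 1.75e-05). The quiescent levels of all 3 lay near background. Mki67, the proliferation marker Ki-67, rose by 3.75 ± 0.44 to 5.20, 6.01 and 6.87, the cytokinesis scaffold Anln by 4.32 ± 0.38 and the survival and spindle protein Birc5 by 4.00 ± 0.34. Among members well above background in both groups, Stmn1 rose by 2.11 ± 0.22 (adjusted p = 1.22e-05), Mad2l1 by 2.19 ± 0.25 and Cdc20 by 2.63 ± 0.36, while Hmgb2 (0.69) and Cks2 (0.16) were not called.

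DNA replication genes rose in 14 of 24 tested members (58.3%, against 9.51% of all genes) and fell in 0 (median 0.93). Several that rose had quiescent means under the log2 5 of the filter, such as Cdc6 (2.33), Ccne2 (2.78) and Gins2 (2.88). These passed only through groups in which they were high, so the count and median are descriptions. Rrm2, the regulated subunit of ribonucleotide reductase, stood at 4.18, 4.32, 5.39, 5.81 and 4.35 against 8.71, 8.64 and 8.93 (3.95 ± 0.38, adjusted p = 5.13e-06), and its partner Rrm1 rose by 2.43 ± 0.39. Cdc6, which loads the replicative helicase, rose by 3.24 ± 0.28, and helicase subunits rose by less: Mcm6 by 1.66 ± 0.31, Mcm5 by 1.39 ± 0.27 and Mcm4 by 0.74 ± 0.22 (not called without CCl4 replicate 1 or 2, 0.68 each). Mcm2 (-0.03) and Pcna (0.24) were not called. CHR letters stood in 1 of the 10 matched promoters of the rising members (10.0%) and CCAAT boxes in 7 (70.0%). Of 18 cyclin-dependent kinase inhibitors and p53 targets 2 rose (11.1%, near the 9.51% of all genes), Gadd45b and Cdkn2b, and 0 without CCl4 replicate 1. Cdkn1a (-0.35), Cdkn1b (-0.56) and Ccnd1 (-0.36) were not called.

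Secreted signals of inflammation rose in a subset. Of 18 tested chemokines and cytokines 6 rose (33.3%, against 9.51% of all genes) and 2 fell (11.1%, near the 12.5% of all genes), 1 without CCl4 replicate 1 or 3 or quiescent replicate 5 (median 0.69). Il6 stood at 2.18, 3.28, 1.67, 4.95 and 2.98 in quiescent and at 8.02, 7.31 and 6.66 in CCl4 arrays, without overlap (4.32 ± 1.05, adjusted p = 0.00876), but the call was lost without CCl4 replicate 1 (adjusted p = 0.0534). Cxcl14 stood at 5.60, 5.19, 1.60, 6.28 and 3.70 against 9.72, 8.58 and 8.92 (4.60 ± 0.87), and the neutrophil attractant Cxcl5 rose by 3.50 ± 0.70. The epithelial cytokine Tslp rose by 2.48 ± 0.54 to 9.88, 10.38 and 8.72. Ccl2, the monocyte attractant, rose by 1.54 ± 0.44 and lost its call without CCl4 replicate 2 or 3 or quiescent replicate 1. Cxcl12, a chemokine that resting stellate cells make at a mean of 12.19, fell by 0.81 ± 0.18 (adjusted p = 0.0573 without quiescent replicate 4 and CCl4 replicate 1 together). Of 22 NF-kB subunits and targets 4 rose (18.2%, against 9.51% of all genes) and 1 fell (4.55%, against 12.5%), or 0 to 2 with a single array left out (median 0.09). Saa3 rose by 6.24 ± 0.64, Lcn2 by 2.77 ± 0.53 and the feedback inhibitor Tnfaip3 by 1.62 ± 0.38, while Nfkbia (0.16), Icam1 (-0.84) and Vcam1 (-0.18) were not called.

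Interferon and antigen presentation genes were called lower at about the share of all genes. Of 38 tested members 0 rose and 6 fell (15.8%, near the 12.5% of all genes), 2 without CCl4 replicate 1 (median -0.01). H2-D1, a class I histocompatibility gene, stood at 11.69, 11.70, 11.86, 12.00 and 12.09 against 10.53, 11.12 and 10.68 (-1.09 ± 0.20, adjusted p = 0.0012), and H2-K1 fell by 1.07 ± 0.16 and the shared light chain B2m by 0.52 ± 0.12 (adjusted p = 0.0538 without CCl4 replicate 1). H2-K1 and H2-D1 are near-identical copies, so their probe sets may cross-react. The interferon targets Ifit1 (0.09), Rsad2 (-0.01), Irf7 (0.29) and Bst2 (0.01) were not called. Among 8 complement genes the lectin Fcna fell from a mean of 9.58 to 6.37, 6.80 and 6.14 (-3.15 ± 0.28, adjusted p = 2.44e-06) and the lectin pathway protease Masp1 by 1.43 ± 0.16, while the C1 inhibitor Serping1 rose by 1.06 ± 0.23. Serpins, the family of that inhibitor, had 5 of 10 tested members higher, against 9.51% of all genes, and 0 lower, against 12.5%. Serpina1b and Serpinf1 passed the filter only through groups in which they were high, so the count that rose is a description. Serpinf1, the antiangiogenic factor PEDF, rose from a mean of 1.46 to 6.61, 5.69 and 6.46 (4.79 ± 0.31, adjusted p = 6.29e-08), and Serpinb2 by 3.13 ± 0.72. The quiescent arrays of Serpinb2 spread from 4.78 to 9.39, highest in replicate 4, against 10.19, 9.76 and 10.10 after CCl4. Serpina1b and Serpinf1 are also made by hepatocytes.

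Stress responses were called unevenly. Of 19 heat shock genes 8 rose (42.1%, against 9.51% of all genes), 5 without CCl4 replicate 2 or 3, and 1 fell (5.26%, against 12.5%), 0 without CCl4 replicate 1 (median 0.36). The small heat shock proteins led them: Hspb7 (5.67 ± 0.25), Hspb1 (3.10 ± 0.58) and Cryab, which binds desmin and stood at 11.48, 11.24, 11.35, 11.43 and 11.08 against 12.54, 12.20 and 12.24 (1.01 ± 0.10, adjusted p = 9.13e-06). The inducible Hspa1a (-1.33) and Hspa1b (-0.41) were not called. Immediate early genes had 5 of 32 lower (15.6%, near the 12.5% of all genes) and 0 higher (median -0.27), and 3 higher without quiescent replicate 4. Fos (-0.24), Egr1 (-0.07) and Atf3 (-0.72) were not called. Of 31 oxidative stress genes, the class that answers radical injury through NRF2, 1 rose and 2 fell (9.68%, against 22.0% of all genes). Hmox1 (0.90), Nqo1 (0.13) and Gclm (0.09) were not called, and Gpx8, an endoplasmic reticulum peroxidase, rose by 1.09 ± 0.15 (adjusted p = 9.88e-05). Of 27 unfolded protein response genes 5 rose (18.5%, against 9.51% of all genes) and 2 fell (7.41%, against 12.5%), or 3 and 0 without CCl4 replicate 1. Creld2 (1.21 ± 0.20) and Manf (0.91 ± 0.17) led those that rose, and Ddit3 (-0.05) and Xbp1 (-0.01) were not called.

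Metabolic lists differed in their share of calls. Of 24 glycolysis and hypoxia genes 33.3% were called, against 22.0% of all genes: 6 rose, 3 without CCl4 replicate 1 or 3, and 2 fell, 0 without CCl4 replicate 1 or 2. The oxygen sensor Egln3 rose by 3.96 ± 0.43, hexokinase Hk2 by 3.25 ± 0.51 and Bnip3 by 1.05 ± 0.21, while Ldha (-0.01) and Slc2a1 (0.87) were not called. Oxidative phosphorylation had 1 of 31 higher (3.23%) and 3 lower (9.68%), or 0 and 1 without CCl4 replicate 1. Cytosolic ribosomal proteins had 0 of 29 higher and 2 lower (6.9%), with 0 lower without CCl4 replicate 1 (median -0.06). These shares lay under the 9.51% and 12.5% of all genes. Of 26 lysosomal genes 14 fell (53.8%, against 12.5% of all genes) and 1 rose (3.85%, against 9.51%), with a median of -0.39. The number that fell was 6 without CCl4 replicate 1, 9 without CCl4 replicate 2 and 9 without quiescent replicate 1 or 2. Ctso, a cathepsin, fell most among them, from a mean of 6.79 to 5.55, 5.83 and 5.72 (-1.09 ± 0.19, adjusted p = 0.00106), and the other 13 fell by 0.35 to 0.82. Psap, the precursor of the saposins, fell by 0.62 ± 0.12 (adjusted p = 0.00158), the acid lipase Lipa from 8.92, 8.96, 8.47, 8.58 and 9.03 to 7.97, 7.98 and 7.97 (-0.82 ± 0.17, adjusted p = 0.00368) and Lamp2 by 0.52 ± 0.11. Ctss, a cathepsin of macrophages and other antigen-presenting cells, was the one that rose (2.73 ± 0.57), beside the lysozyme genes named above. Of 7 S100 genes S100a4, S100a6 (9.93 to 12.39, 11.96 and 12.33) and S100a16 rose (42.9%, against 9.51% of all genes). S100a10 fell by 0.84 ± 0.19 (14.3%, against 12.5%). S100a4 and S100a16 passed the filter only through groups in which they were high, so the share that rose is a description.

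**Figure D4:**
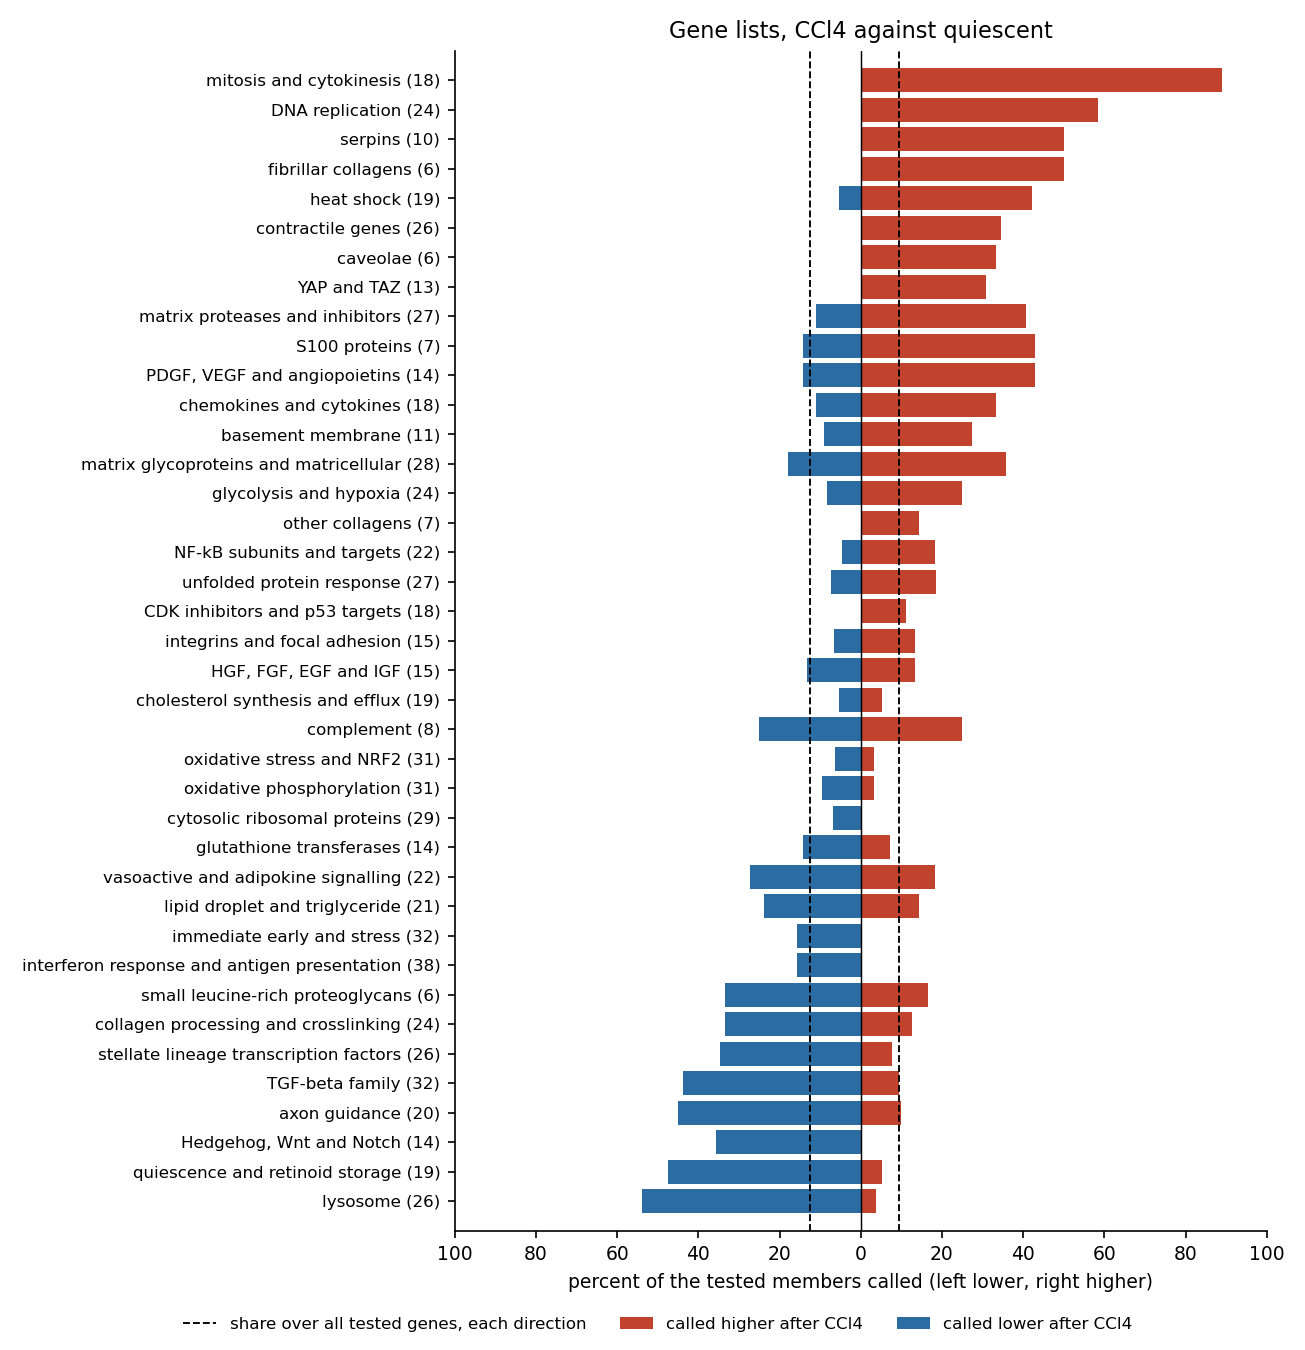
Share of the tested members of each pathway list (cell type marker lists not shown) called lower (blue, to the left) or higher (red, to the right) after CCl4, in percent, with the number of tested members in brackets and dashed lines at the shares over all 7823 tested genes (12.5% lower, 9.51% higher). Mitosis (88.9%) and DNA replication reach furthest to the right, and lysosome and quiescence furthest to the left, while ribosomal, respiratory and oxidative stress genes stay inside the dashed lines.

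CCl4 cells were then set against stellate cells from the other injury, bile duct ligation, in which backed-up bile damages the ducts. The arrays of both injuries correlated at 0.937 to 0.969. Limma called 13 genes (0.166%), 11 higher after CCl4 (0.141%) and 2 lower (0.0256%), with 1099 genes at an unadjusted p under 0.05. Baiap2l1 stood at 7.83, 8.11 and 9.01 after CCl4 and at 4.55, 5.16 and 4.15 after ligation, a difference of 3.69 ± 0.38 (adjusted p = 0.00025). S100a4 stood at 8.88, 8.57 and 9.82 against 6.01, 5.85 and 5.59 (3.28 ± 0.36, adjusted p = 0.000426), and Plscr2, a phospholipid scramblase, at 7.12, 6.16 and 6.45 against 3.70, 3.79 and 3.33 (2.97 ± 0.31, adjusted p = 0.00025). Bnc1, a transcription factor of mesothelium, stood at 4.46, 5.22 and 7.04 against 1.72, 2.28 and 1.94 (3.60 ± 0.51, adjusted p = 0.00626). For these 4 genes the arrays were fully apart, as they were for 25.3% of all genes (11.8% with CCl4 higher, 13.5% lower), and the ligation level lay between the quiescent and the CCl4 level.

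The fetal hepatocyte gene Afp differed most, at 6.67, 6.89 and 8.98 against 3.46, 3.17 and 2.45 (4.49 ± 0.69, adjusted p = 0.00982), and lost its call without CCl4 replicate 3 (3.75, adjusted p = 0.0562) or without ligation replicate 3. Alb was not called between the injuries (1.08, adjusted p = 0.506). Col4a5, the protease gene Htra1, the adhesion gene Mpzl2 and the semaphorin Sema3a were higher as well, with differences between 1.91 and 2.45 (Sema3a not called without CCl4 replicate 1 or 3 or ligation replicate 3), and so were the kinase gene Prkg2 (2.99 ± 0.54, adjusted p = 0.0348) and the GTPase gene Rnd1 (2.30 ± 0.41, adjusted p = 0.0344), both of which lost their calls without CCl4 replicate 1 or 3 or ligation replicate 3. Adamtsl5 (-1.39 ± 0.25, adjusted p = 0.0348) and Tmem119 (-1.80 ± 0.34, adjusted p = 0.043) were lower, and leaving out any one array of either injury but ligation replicate 1 removed the call of Adamtsl5. The call of Tmem119 was lost without any one of the 6 arrays (-1.92 to -1.68). Among genes lower after CCl4 that missed the threshold, Mn1 differed by -1.76 and Mtch1 by -0.94 (adjusted p = 0.065 each), and Rnpepl1 by -0.90 (adjusted p = 0.0701). Several genes at the centre of activation were not called: Col1a1 stood at 11.88, 12.15 and 12.61 after ligation, above every CCl4 array (-1.36 ± 0.43, adjusted p = 0.202), Acta2 differed by -0.13 ± 0.21 (adjusted p = 0.829) and Mki67 by 0.14 ± 0.49 (adjusted p = 0.936). With 3 arrays a side, a p that misses the threshold does not show that the injuries act alike.

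**Figure D5:**
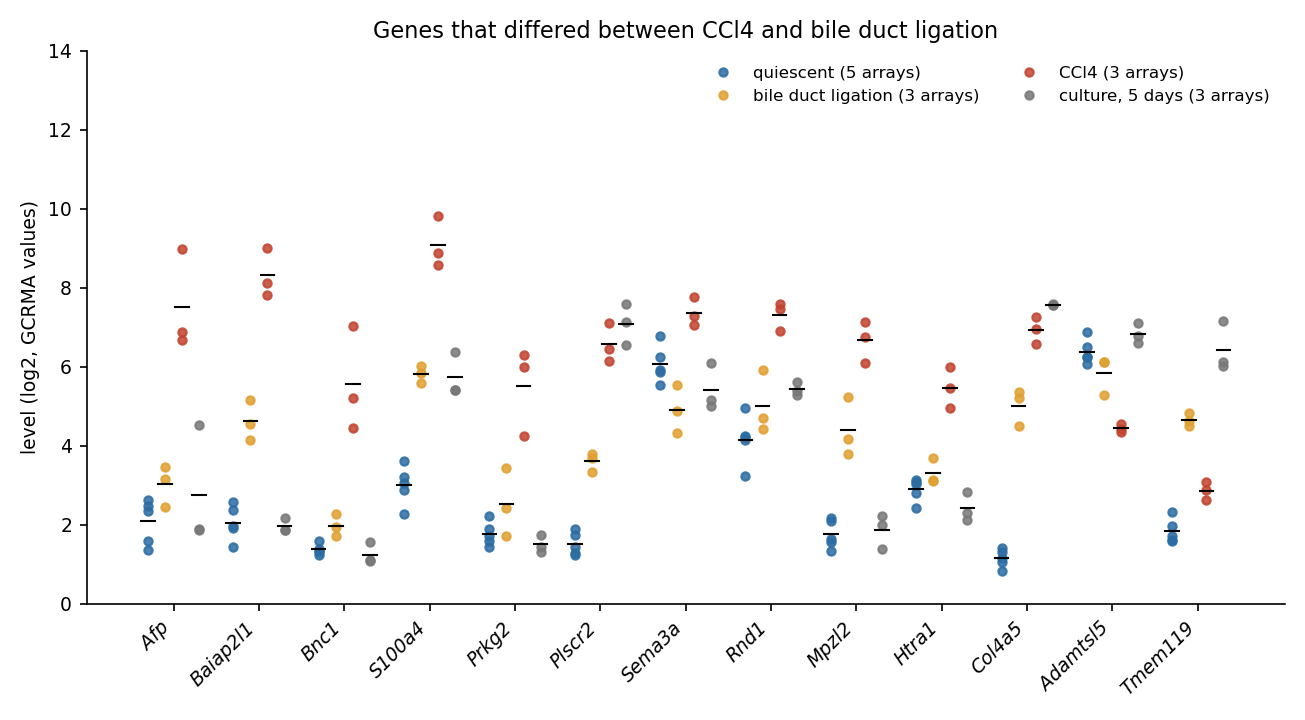
Levels (log2) of the 13 genes called between CCl4 and bile duct ligation, by array, in quiescent (blue, 5), ligation (orange, 3), CCl4 (red, 3) and cultured cells (grey, 3), with bars at the means. Baiap2l1, S100a4 and Bnc1 are highest in all 3 CCl4 arrays, while Tmem119 and Adamtsl5 are lower after CCl4 than after ligation.

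Against cells activated for 5 days on plastic, CCl4 cells differed in 3366 genes (43.0%), 1713 higher (21.9%) and 1653 lower (21.1%). Array correlations were 0.792 to 0.875, and the arrays of the groups did not overlap in 56.0% of genes (28.5% higher, 27.5% lower). The 8 largest increases were Serpinb2 (8.07), Gsta2 (6.91), Alb (6.87), Ch25h (6.82), Baiap2l1 (6.34), Slpi (6.33), Krt18 (6.29) and Dpt (6.05). Gsta2, a glutathione transferase, stood at 9.35, 8.90 and 9.13 after CCl4 and at 2.01, 2.34 and 2.31 in culture, but it was not called against quiescent cells (0.84, adjusted p = 0.0867). The 8 largest decreases were Ogn (-7.52), Shisa2 (-7.16), Angpt1 (-6.03), Lrat (-5.95), Igfbp3 (-5.69), Epha3 (-5.53), Pdgfd (-5.50) and Ccdc141 (-5.42). Igfbp3, the main carrier of insulin-like growth factors, stood at 7.02, 7.28 and 7.28 after CCl4 and at 12.98, 12.74 and 12.93 in culture. All 16 kept their calls under every alternative with a value.

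Fibrosis genes were placed differently by the routes of activation. Col1a1 was higher after CCl4 than in culture (9.23, 8.88 and 9.16 in culture, difference 1.77 ± 0.43, adjusted p = 0.00365), and so was Timp1 (2.97 ± 0.70, adjusted p = 0.00338). Acta2 was not called (0.13 ± 0.21, adjusted p = 0.65), and Lox was lower after CCl4 (-1.02 ± 0.34, adjusted p = 0.0247). Mki67 was higher by 1.84 ± 0.49. Of 24 DNA replication genes 18 were higher after CCl4 than in culture and 0 lower, of 29 ribosomal protein genes 25 were higher (median 0.47), and of 38 interferon and antigen presentation genes 0 were higher and 16 lower. Over all genes, 21.9% were called higher and 21.1% lower in the comparison with culture. The culture comparison shares its CCl4 arrays with the comparison against quiescent cells, so these results are not independent of those above.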

How the data were processed

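The 16 arrays are Affymetrix whole-genome mouse expression arrays, each hybridised with RNA of one preparation of hepatic stellate cells. The authors deposited log2 values per probe set, made with GCRMA per the submitters' processing notes (version not given in the sources used here). GCRMA estimates background from probe sequence and quantile-normalizes the arrays, so unexpressed probe sets sit near 2. No detection calls were used. The number of arrays limits the precision.

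Of 45101 probe sets, 34945 carried 1 gene symbol, and the probe set with the highest mean stood for each of 18193 genes. Genes reaching log2 5 on 2 or more arrays were fitted with limma 3.58.1 (R 4.3.3) with 5 group means over all 16 arrays and a mean-variance trend, and called at a Benjamini-Hochberg adjusted p under 0.05. The fit was tested on simulated data. Quiescent and CCl4 arrays with the same number did not deviate together (correlations of -0.15, 0.07 and -0.19), so numbers were not used as pairs.

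Named were the 15 largest changes in each direction among called genes without overlap, 8 in the other comparisons (or the 5 with the smallest p where fewer than 5 were called), members of the gene lists by adjusted p or by role, and a fixed set. Afp, Abcc9 and the genes used to describe single arrays are not all reached by that rule and were chosen with their values seen. The comparison, its members and the lists were chosen with earlier results of these data known. Promoter sequences came from RefSeq (GRCm38.p6), and 1 start site per gene was used for those printed.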

Additional observations from a re-analysis of the deposited data

Results flagged for a closer look

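Among 78 genes checked in the 5 quiescent arrays, 7 had a single array far from the other 4, and chance flags about 1 in 20 groups. Of these, 4 concerned quiescent replicate 4. Ptgs2 stood at 7.67 there and at 1.58 to 2.71 in the others, and its rise after CCl4 was 6.76 (adjusted p = 3.54e-05, limma) without that array. Mmp13 stood at 8.16 against 3.61 to 4.38, with a difference of 4.48 (adjusted p = 0.00044) without it. Gdf2 stood at 8.53 against 9.94 to 10.22, with -3.64 (adjusted p = 4.84e-06) without it, and Reln at 11.52 against 12.07 to 12.26, with -1.53 (adjusted p = 0.00305). In these 4 genes the array was shifted towards the CCl4 level. Other genes went the other way: Col1a1 stood at 6.71 there against 7.92 to 9.0, and Col3a1 at 9.34 against 10.78 to 12.08. Leaving out an array that lies on the CCl4 side for a gene enlarges its difference by itself. The larger differences of the 4 flagged genes without replicate 4 are therefore no separate result.

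The other flagged values lay near background. Cyp2e1 stood at 1.80 in quiescent replicate 3 and at 1.25 to 1.38 in the others, and Igf1 at 1.73 in quiescent replicate 2 against 1.98 to 2.03. Mn1 stood at 3.31 in quiescent replicate 2 against 2.44 to 2.67, and its difference without that array was 0.86 (adjusted p = 0.066).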

How the results depend on the processing

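Of 296 called genes that are named or on a list, 183 kept their call under all alternatives that gave them a value and 113 lost it under at least 1. The number of genes called between CCl4 and quiescent cells ranged from 878 to 1890 when single arrays were left out (440 to 796 higher, 438 to 1094 lower), with the fewest without CCl4 replicate 1. Without quiescent replicate 4 and CCl4 replicate 1 together, an alternative chosen after seeing the data, 1086 were called (488 higher, 598 lower). With the replicate number as a block 1325 were called, of which 1184 were also called without it. The cause of these shifts was not tested.

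Against bile duct ligation the counts moved most. They were 43 without a filter (36 higher, 7 lower), 4 with a filter at log2 7 (4 and 0, with 765 at an unadjusted p under 0.05 in limma), 20 with probe sets averaged (4 lower), 173 with array weights (91 and 82), 40 with only the arrays compared (30 and 10) and 7 without quiescent replicate 4 and CCl4 replicate 1 (7 and 0). Leaving out single arrays gave 4 to 12 (4 to 12 higher, 0 to 1 lower). The replicate block gave 16. Against culture 3366 genes were called, 2533 to 4764 over all alternatives and 3462 with the block.

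Signs turned for genes that were not called: Des at -0.03 with the block, -0.08 without quiescent replicate 4 and between -0.21 and 0.22 over left-out arrays; Mmp2 at -0.47 to 0.03 over left-out arrays, highest without CCl4 replicate 1, and 0.02 without quiescent replicate 4 and CCl4 replicate 1. The called gene Sel1l stood at 0.04 with probe sets averaged.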

Other observations

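Glutathione transferases, which conjugate reactive compounds, were called at about the share of all genes: of 14 tested genes 1 rose (7.14%, against 9.51%) and 2 fell (14.3%, against 12.5%; median -0.12, against -0.05). Gsta3 rose from a mean of 5.22 to 7.05 (1.83 ± 0.24, adjusted p = 8.25e-05, limma). Gstp1, abundant in quiescent cells at 12.73, fell by 0.47 ± 0.08 (adjusted p = 0.000667), and Gstt1 by 1.62 ± 0.41 (adjusted p = 0.0116). All 3 kept their calls under every alternative that gave them a value. Without quiescent replicate 4 the counts were 2 higher and 3 lower, and without quiescent replicate 3 they were 2 and 2.

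Markers shared by vascular smooth muscle and pericytes moved in both directions. Of 9 tested members 3 rose (33.3%, against 9.51% of all genes), the contractile genes Acta2, Myh11 and Cnn1. Another 3 fell (33.3%, against 12.5%), the potassium channel subunits Kcnj8 and Abcc9 and the signalling regulator Rgs5 (median 0.36). Myh11 and Cnn1 passed the filter only through groups in which they were high, so the count that rose is a description. The 2 oxidative stress genes that fell were Fth1, the ferritin heavy chain (-0.37 ± 0.07, adjusted p = 0.00134), and Hmox2, the constitutive haem oxygenase (-0.76 ± 0.17, adjusted p = 0.00457).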
